A study of Mus musculus with 2 samples.

Results

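Memory and naive CD8 T cells of mouse blood were compared by their RNA within the same animals. The deposited table of 1055 cells holds 981 listed with RNA and 978 with a cell type label, and 178 of these carry one of the CD8 T cell labels, memory for 106 cells and naive for 72. Cells of whole blood, cleared of red cells by lysis, were sorted singly and processed by scM&T-seq, in which the messenger RNA and the DNA of a cell are parted and sequenced as a transcriptome and a methylome. Only the RNA counts were analysed. All 11 mice were wildtype males of the strain C57BL/6 J, aged 9.6 or 9.7 weeks (n = 2), 36.1 weeks (n = 3), 77.0 or 77.4 weeks (n = 3) and 99.1 or 101.1 weeks (n = 3), the last being called the oldest mice here. No animal was treated, the cells of each mouse filled a plate of their own, and plate and mouse cannot be told apart.

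The labels were the authors' own and came from the same RNA. The cells were clustered on their variable genes and each cluster was named by its most frequent match to reference blood cells, so every gene of these cells is counted here as used in drawing the line between memory and naive. A gene test between the labels therefore describes how steady a difference was over mice and is no independent test of the labels. The age of the mice was not itself used to set the labels. It can still enter them through the RNA, since both labels had more genes per cell in the oldest mice.

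Naive CD8 T cells have left the thymus but not yet met the antigen that their receptor recognises. They circulate between blood and lymph nodes, which they enter with the chemokine receptor CCR7, under transcription factors such as TCF1, LEF1, FOXP1 and KLF2. Memory CD8 T cells descend from cells that responded to antigen or, in unimmunised mice, to cytokines, and carry the T-box factors T-bet and Eomes, the interleukin-2 receptor beta chain, CD44 and stores of chemokine and cytotoxic mRNA. Central memory cells keep CCR7, effector memory cells do not, and memory-phenotype cells become a larger part of the CD8 compartment as mice age.

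Both labels held T cells by their markers. Cd8b1, a chain of the CD8 co-receptor, had counts in 87.7% of memory and 93.1% of naive cells, and Cd3d, a chain of the CD3 complex, in 96.2% and 95.8%. Foxp3, the factor of regulatory T cells, had no count in either, and Cd4 had counts in 0.943% of memory cells and no naive cell. Of the 4 NK cell markers Klrb1c, Fcer1g, Tyrobp and Ncr1, none had a count in a naive cell, and they had counts in 16.04%, 7.55%, 3.77% and 0.943% of memory cells. Klrb1c does not mark NK cells alone. It also stands in the list of receptors that T cells share with NK cells, and had counts in 17.2% of 151 CD4 T cells. The summed level of these markers was 0 to 222.5 CPM, the counts of a gene relative to the scaled total of its library, in the memory cells of a mouse and 0 in the naive cells of every mouse, and 19 memory cells had at least 10 counts of them. At least 10 counts of B cell markers were found in 10 memory cells and 1 naive cell. A list of 8 B cell genes that also holds Ighm, the heavy chain of IgM, lay the other way, with a summed level of 363.6 ± 225 CPM in memory and 612 ± 326 CPM in naive cells (SD, n = 9 mice), higher in memory in 3 of 9 mice, and Ighm had counts in 45.3% of memory and 66.7% of naive cells. Of the 5 markers of unconventional T cells, such as gamma delta T cells, 4 had counts in a larger share of memory cells. Tcrg-C2, Tcrg-C4 and Tcrg-C1 had counts in 13.2%, 8.49% and 7.55% of memory cells and in 1.39%, 0% and 0% of naive cells, Trdc in 12.3% and 6.94%, and Zbtb16 in 2.83% and 4.17%. The summed level of the 5 markers was 0.28 to 688 CPM in memory and 0 to 325 CPM in naive cells, higher in 7 of 9 mice, and 5 memory cells and 1 naive cell had at least 10 counts of Trdc and Zbtb16 summed. The part of such cells in the differences below was not tested, but the count of genes was recomputed without them. Since Klrb1c is among the markers, that removal can also take out memory T cells with Klrb1c counts.

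Depth differed between the labels. Total counts of a cell ranged from 183552 to 1066495, with a median of 546917 in memory and 385782 in naive cells. Counts were summed over the cells of each label in a mouse, and the paired test used the 9 mice with at least 3 cells of each, which gave 92 memory and 72 naive cells and sums of 1639484 to 14990184 counts. Mouse 1, one of the oldest, and mouse 15, of 36.1 weeks, had 7 memory cells each and no naive cell, and stayed outside it. The smallest sum came from the 3 memory cells of mouse 24, in which hemoglobin transcripts made up 13.1% of counts per cell. In bulk sums such as these, fewer expressing cells and less RNA per expressing cell cannot be told apart by the level alone, so shares of cells with a count are given beside the levels.

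Of 4624 genes detected in at least 25% of either label, 24 were higher and 5 lower in memory cells (edgeR quasi-likelihood test with mouse as a block, Benjamini-Hochberg adjusted p under 0.1). These are 0.519% and 0.108% of the genes tested, and because the labels came from these genes nothing is read from the shares. The higher genes were S100a6, Klre1, Tbx21, Acot7, Lgals1, Gm11914, Samd3, Klrk1, Hmgn5, Gm13237, Nkg7, Id2, Il18rap, Gimap4, Fgl2, Eomes, Itpr1, Lpin1, Hmgb2, Gm13160, Cd44, Ctla2a, Cd160 and Ifngas1. The lower genes were Npc2, Foxp1, Rpl35, Ccr9 and Klf2. Only 11 of the 29 passed the detection filter in both labels, 7 of the higher and 4 of the lower, and the rest were scarce on one side.

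The count of genes differed between tools. The same contrast with limma, run on log2(CPM + 1) averaged over cells, in which a cell with very many counts weighs no more than another, called 138 genes higher (2.98%) and 28 lower (0.606%). Of the 29 genes, 26 were among these. DESeq2, on the same sums as edgeR, called 502 genes, 401 of them higher, with all 29 among them. A gene that passed the detection filter through memory cells alone could hardly be called lower. Of 1170 such genes, edgeR called 17 higher (1.45%) and limma 88 (7.52%), and neither called any lower. Of the 3294 genes that passed in both labels, edgeR called 7 higher (0.213%) and 4 lower, and limma 50 higher (1.52%) and 21 lower (0.638%). Without the cells that had markers of another cell type, edgeR called 10 genes higher and 1 lower over 8 mice, and with each mouse left out in turn it called 15 to 20, of which 13 to 18 were higher and 0 to 3 lower. The 0 was without mouse 2. Of the 29 genes, 7 of the higher kept the call in all 9 of these fits (Lgals1, Samd3, Klrk1, Nkg7, Id2, Gimap4 and Gm13237). A further 7 lost it in 1 fit each, S100a6 without mouse 11, Tbx21 and Il18rap without mouse 22, Klre1 and Acot7 without mouse 12, and Gm11914 and Hmgn5 without mouse 14. The other 10 higher genes kept it in at most 2 fits, Eomes and Ifngas1 in none. Of the lower genes, Npc2 kept it in 6 fits, Foxp1 and Ccr9 in 2, and Klf2 and Rpl35 in 1. All 29 genes kept their direction in every alternative that tested them. Across the table, 60 genes were higher in memory cells in 9 of 9 mice (1.3% of genes) and 48 lower (1.04%). In 17 genes (0.368%) every memory value lay above every naive value, and in 2 genes (0.0433%), Foxp1 and Rgcc, every memory value lay below.

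**Figure D1:**
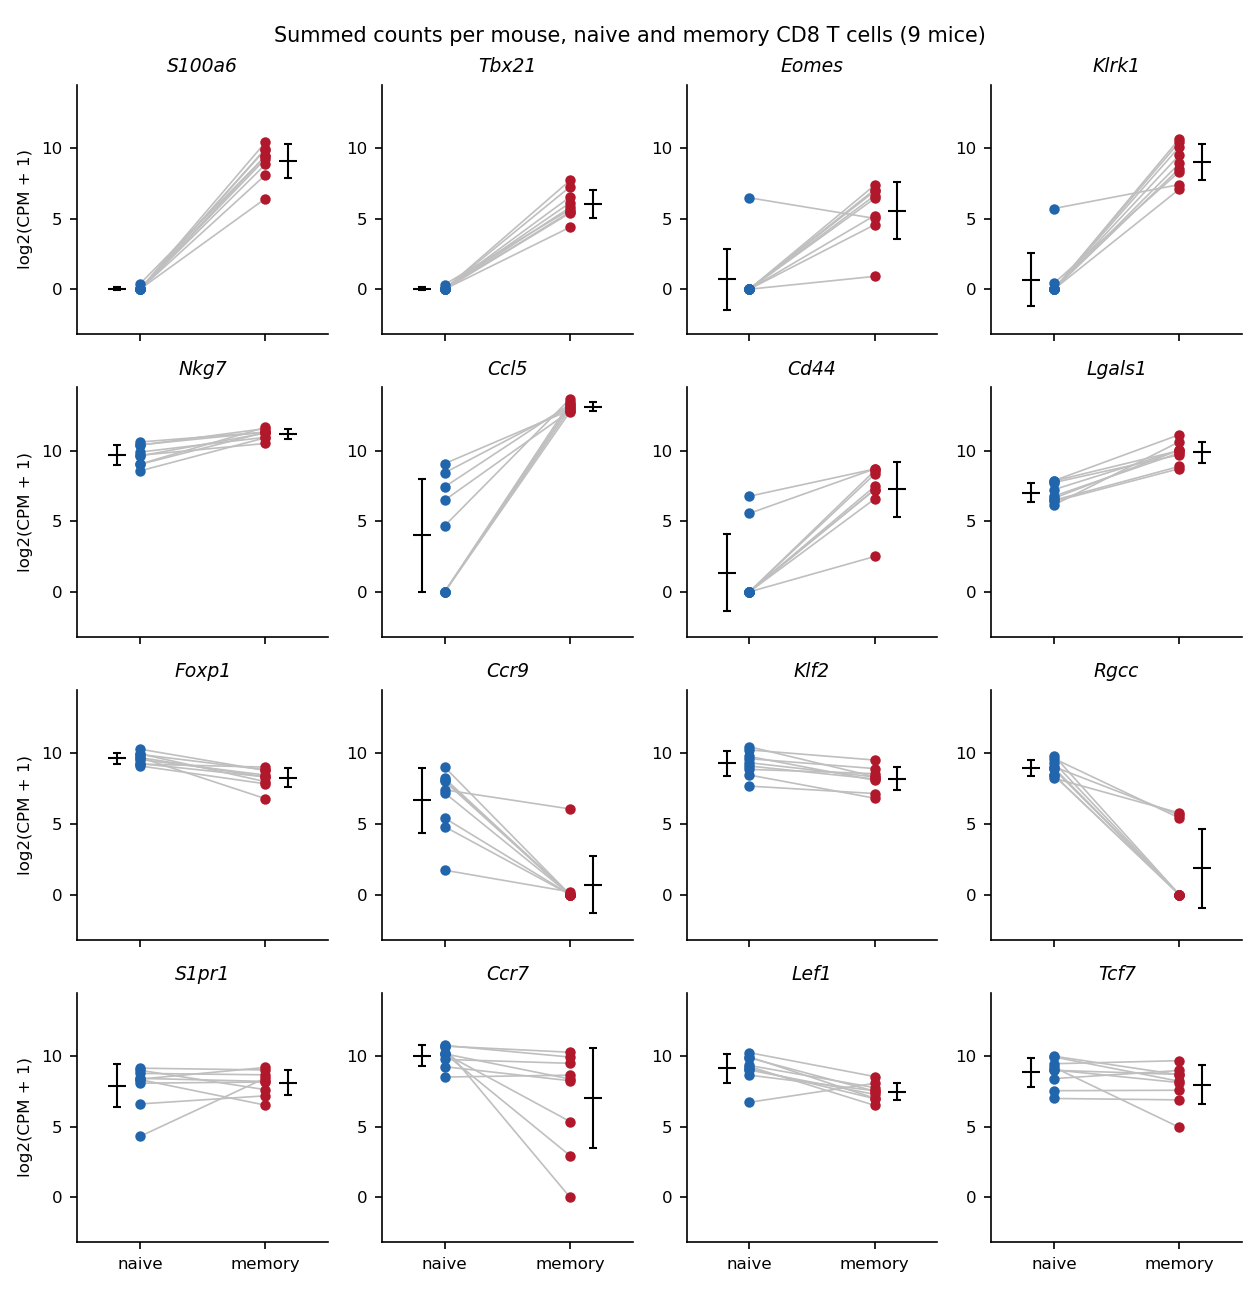
Level of 16 genes in memory and naive CD8 T cells, as log2(CPM + 1) of the summed counts of each label in a mouse. Points are mice, lines join the labels of 1 mouse and bars give mean ± SD (n = 9 mice); S100a6, Tbx21, Ccl5 and Lgals1 are separated in all mice, while the values of S1pr1, Ccr7, Lef1 and Tcf7 overlap.

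Of the transcription factors linked to memory and effector cells, 3 of the 8 that were tested, in a list of 15, rose in the edgeR test (0.519% of all genes). Tbx21 and Eomes are among the 4 that passed the filter through memory cells alone, and Id2 among the 4 that passed in both labels. Tbx21 (ENSMUSG00000001444, chr11:97098071-97115331, minus strand) encodes T-bet, the T-box factor of type 1 immunity. Its level was 20 to 208 CPM in memory cells (median 54.3) and 0 in the naive cells of 8 mice, with 1 count in mouse 22 (adjusted p = 0.000935, edgeR). No mouse overlapped, and at 150000 counts drawn per cell Tbx21 had a count in 28.3% of memory and 1.39% of naive cells (30.2% and 1.39% with all counts). Eomes (ENSMUSG00000032446, chr9:118478212-118486132, plus strand), the T-box factor of long-lived memory cells, was at 0.877 to 164 CPM in memory cells (median 85), and had naive counts only in mouse 11, at 88.0 CPM (adjusted p = 0.056, edgeR, and 0.112 to 0.546 with single mice left out, so that the call was lost without any 1 of the 9). Memory was higher in 8 mice and mouse 11 went the other way. Id2 (ENSMUSG00000020644, chr12:25093799-25097140, minus strand), an inhibitor of E proteins, was at 504 to 2224 CPM in memory cells (median 1072), against 167 to 1080 CPM in naive cells (median 288) (log2 difference 1.63 ± 0.26 SE, adjusted p = 0.0313, edgeR). The ranges overlapped although memory was higher in 9 of 9 mice.

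Both T-box factors were scarce in single cells. At 150000 counts per cell, 10 of 106 memory cells had counts of both Tbx21 and Eomes, 20 of Tbx21 alone, 27 of Eomes alone and 49 of neither, which counts detection in single cells and not absence of the transcript. Tbx21 had counts in 28.3% and Eomes in 34.9% of memory cells at this depth, and whether they went together or apart was not tested. Over the 4 members of the list that passed in both labels, the median difference of the mean log2(CPM + 1) was 0.76, beside 0.0046 over all 3294 such genes. Prdm1, Zeb2, Bhlhe40 and Nfil3, regulators of effector cells, stayed below the filter.

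The T-box letters GGTGTGA were looked for on both strands of the RefSeq promoters (GRCm38.p6, 250 bases before to 50 after a start), since Tbx21 and Eomes moved with the other genes. A promoter was found for 19 of the 24 higher and all 5 lower genes. The letters occurred at 3 of the 19 (15.8%), Cd160, Nkg7 and Samd3, at 0 of the 5, and at 4.6% of 27025 genes. The 3 matches are printed with 30 bases each, on the strand of the gene, with the match in capitals, at chr3:96814699-96814728 for Cd160 (minus strand), chr7:43437107-43437136 for Nkg7 and chr10:26229674-26229703 for Samd3.
Cd160: gagagagagaagtcagggGGTGTGAtggag
Nkg7: aagggagggggtagggaaGGTGTGAgaaga
Samd3: aaccacttcctgatgattTCACACCtttct
The match began 13 bases before the RefSeq start of Nkg7, inside the untranslated first exon of a longer annotated transcript, 15 bases before that of Samd3 and 189 bases before one of the starts of Cd160. RUNX letters (TGTGGTT) occurred at 5 of the 19 genes (26.3%), Cd160, Il18rap, Klre1, Klrk1 and S100a6, and at 6.09% of all genes. ETS letters (AGGAAGT) occurred at 4 of 19 (21.1%, and 10.7% of all), KLF letters (GGGTGTG, which can overlap the T-box letters) at 1 (5.26%, and 9.05%) and TCF/LEF letters (ATCAAAG) at none (4.29% of all). Among the 5 lower genes, ETS letters occurred at Rpl35 and TCF/LEF letters at Npc2. These 5 motifs were all that were searched, and a match is a run of letters, not a bound site.

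Among receptors of the memory surface, Cd44 and Il18rap rose. Of 20 listed, 15 were tested. Of these, 2 rose in the edgeR test (Cd44 and Il18rap, beside 0.519% of all genes) and 10 with limma (2.98%). None fell in either, and 6 of the 15 were higher in all mice (1.3% of all genes). These counts say little of the list, since 11 of the 15 passed the detection filter through memory cells alone. Of the 4 that passed in both labels, Cd48, Cd7, Ifngr1 and Itgb2, edgeR called none and limma Cd48 and Ifngr1, and the median difference was 2.89 on the log2(CPM + 1) scale, beside 0.0046 over all such genes. Cd44 (ENSMUSG00000005087, chr2:102811141-102901665, minus strand), the hyaluronan receptor that marks antigen-experienced T cells, was at 4.68 to 418 CPM in memory cells (median 176), against 0 to 109 CPM in naive cells (median 0) (adjusted p = 0.0884, edgeR). Only 2 mice had naive counts of Cd44, and the ranges overlapped through them. It had a count in 50.9% of memory and 2.78% of naive cells at 150000 counts (51.9% and 2.78% with all counts). Il18rap (ENSMUSG00000026068, chr1:40515362-40551705, plus strand), the accessory chain of the interleukin-18 receptor, was at 53.1 to 542 CPM in memory cells (median 189) and in naive cells of 2 mice, up to 148 CPM (adjusted p = 0.0313, edgeR). Its memory level was higher in 9 of 9 mice, by little in mouse 23.

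Some defining markers were separated in every mouse without passing the edgeR test. Il2rb (ENSMUSG00000068227, chr15:78479256-78495271, minus strand), the beta chain of the receptor for interleukins 2 and 15, was at 178 to 1148 CPM in memory cells (median 594), against 0 to 169.6 CPM in naive cells (median 5.55) (adjusted p = 0.164 with edgeR, 0.00174 with limma). Cxcr3 (ENSMUSG00000050232, chrX:101731535-101734269, minus strand), the receptor for interferon-induced chemokines, was at 1.56 to 504 CPM in memory cells (median 326) and had no count in naive cells (adjusted p = 0.378 with edgeR, 0.0163 with limma). The absence of counts in 72 naive cells allows a share of up to 4.17% of cells with a count, by counting error alone. Ly6c2, a surface antigen of memory CD8 T cells, was at 851 to 2652 CPM in memory cells (median 1607), against 0 to 1113 CPM in naive cells (median 216), with overlap (adjusted p = 0.679 with edgeR, 0.00794 with limma). Ccr2, a receptor for monocyte chemokines named here after its values were seen, also had no naive count and had counts in 38.7% of memory cells.

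These markers were not found in the same cells throughout. At 150000 counts per cell, 39 of the 106 memory cells had counts of both Il2rb and Cxcr3, 43 of Il2rb alone, 9 of Cxcr3 alone and 15 of neither. Il2rb had counts in 77.4% and Cxcr3 in 45.3% of memory cells at this depth, and whether they went together or apart was not tested. Of the naive cells, 7 had an Il2rb count and none of them a Cxcr3 count.

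Some receptors shared with NK cells also rose. Of 17 listed, 8 were tested. Of these, 3 rose in the edgeR test (Klre1, Klrk1 and Cd160, beside 0.519% of all genes) and 6 with limma (2.98%), and none fell. Over all genes that passed the filter through memory cells alone, edgeR called 1.45% and limma 7.52% higher and none lower. Of the 8, 7 passed the filter through memory cells alone, and the 1 that passed in both labels, Klrd1, was called by neither tool, with a difference of 0.10 on the log2(CPM + 1) scale. Klrk1 (ENSMUSG00000030149, chr6:129610323-129623864, minus strand), which encodes the activating receptor NKG2D, was at 135 to 1604 CPM in memory cells (median 478) and in naive cells of 2 mice, up to 51.6 CPM (adjusted p = 0.0158, edgeR). The lowest memory value lay above every naive value. Klre1 (ENSMUSG00000050241, chr6:129577905-129585827, plus strand), a lectin-like receptor gene of the same cluster on chromosome 6, was at 0 to 817 CPM in memory cells (median 271), with 1 naive count in all (adjusted p = 0.000396, edgeR). Memory was higher in 8 mice, and in the remaining mouse neither label had a count. Of the memory cells, 29 had both receptors at 150000 counts, 26 Klrk1 alone and 4 Klre1 alone.

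Cd160 (ENSMUSG00000038304, chr3:96798763-96829351, minus strand), a receptor for HVEM and class I molecules, was at 67.6 to 670.4 CPM in memory cells (median 285), and was lower than in naive cells in mouse 23 alone, where these held 361 CPM (adjusted p = 0.0884, edgeR). Klrc1 and Klrc2, the inhibitory and activating NKG2 chains, had no naive count and had counts in 40.6% and 39.6% of memory cells, without passing the edgeR test (adjusted p = 0.336 and 0.453). Klrd1, the CD94 partner chain of both, was at 275 to 1227 CPM in memory cells (median 529), against 89.5 to 882 CPM in naive cells (median 636) (log2 difference 0.04 ± 0.31 SE, adjusted p = 0.9995, edgeR). Its partners were thus absent from the naive counts while Klrd1 itself had counts in 76.4% of memory and 66.7% of naive cells at 150000 counts. The 4 NK cell markers had counts in memory cells and none in naive cells. Their summed level was 93.8 ± 77.3 CPM in memory cells (SD, n = 9 mice) and 0 in naive cells, higher in 7 of 9 mice, with Klrb1c in 16.04% of memory cells and Ncr1, which marks NK cells, in 0.943%, against 92.0% and 88.0% of 25 NK cells. Klrb1c is itself among the listed receptors and had counts in 17.2% of 151 CD4 T cells. The part of these markers in the rise of the receptors was not tested.

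Of the cytotoxic granule genes, 9 of 14 were tested, 1 rose in the edgeR test and 5 with limma (0.519% and 2.98% of all genes). Gzmm, Fasl and Cst7, 3 of the 5, passed the filter through memory cells alone. Of the 5 tested genes that passed in both labels, edgeR called Nkg7 and limma Nkg7 and Ctsw, and the median difference was 2.699 on the log2(CPM + 1) scale. Nkg7 (ENSMUSG00000004612, chr7:43437073-43438249, plus strand), a granule membrane protein, was at 1462 to 3212 CPM in memory cells (median 2524), against 379 to 1568 CPM in naive cells (median 817) (means 2407 ± 547 and 919 ± 422, SD, n = 9 mice, log2 difference 1.49 ± 0.23 SE, adjusted p = 0.0313, edgeR). Memory was higher in 9 of 9 mice, and the ranges met only because the lowest memory value, of mouse 12, lay within the naive range. Naive cells were not without it, since 72.2% had an Nkg7 count at 150000 counts, against 98.1% of memory cells. With all counts it was found in 100% of 25 NK cells, 33.8% of 151 CD4 T cells and 1.17% of 600 B cells. Gzmm and Fasl, a granzyme and the ligand of the death receptor Fas, had no naive count and had counts in 44.3% and 40.6% of memory cells (adjusted p = 0.29 and 0.401, edgeR). The effector granzymes were rare in memory cells too. Gzma, Gzmb and Gzmk had counts in 9.43%, 17.9% and 18.9% of memory cells at 150000 counts and in no naive cell, so they stayed below the filter.

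Ccl5 (ENSMUSG00000035042, chr11:83525778-83530518, minus strand), the T cell chemokine RANTES, split the labels in every mouse. It was at 6935 to 12990 CPM in memory cells (median 8667), against 0 to 541 CPM in naive cells (median 24.7) (means 9120 ± 1995 and 130 ± 193, SD, n = 9 mice). Every memory value lay above every naive value, and 96.2% of memory cells, 6.94% of naive cells, 100% of 25 NK cells, 32.5% of 151 CD4 T cells and 0.833% of 600 B cells had a count. The difference passed with limma (adjusted p = 1.14e-06) and missed the threshold with edgeR (adjusted p = 0.139). Of 12 listed chemokines and cytokines 4 were tested, none rose with edgeR and 2 rose with limma (2.98% of all genes), Ccl5 and Xcl1. Both passed the filter through memory cells alone, as did 1170 genes of which limma called 7.52% higher. Ltb and Il16, which passed in both labels, were called by neither. Ifng was below the filter, with counts in 4.72% of memory cells, while Ifngas1 (ENSMUSG00000112230, chr10:118502035-118556525, minus strand), a long noncoding RNA beside it, was at 0 to 175 CPM in memory cells (median 128) and in naive cells of mouse 24 alone, at 42.1 CPM, where memory cells had none (adjusted p = 0.0884, edgeR, and 0.201 to 0.489 with single mice left out).

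The gene with the smallest p was S100a6 (ENSMUSG00000001025, chr3:90612882-90624181, plus strand), a calcium-binding protein of the S100 family. Its level was 84.6 to 1348 CPM in memory cells (median 685), with 1 naive count in mouse 11 and none in the other 8 mice (adjusted p = 7.89e-06, edgeR). The groups did not overlap. S100a6 had a count in 76.4% of memory and 1.39% of naive cells, at 150000 counts as at all counts.

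Lgals1 (ENSMUSG00000068220, chr15:78926725-78930465, plus strand), the lectin galectin-1, was at 423 to 2247 CPM in memory cells (median 1029), against 70.2 to 234 CPM in naive cells (median 109) (means 1069 ± 560 and 142 ± 67.0, SD, n = 9 mice, log2 difference 2.87 ± 0.27 SE, adjusted p = 0.000935, edgeR). It too was separated in every mouse, with counts in 84.0% of memory and 31.9% of naive cells. S100a6 and Lgals1 were the called members among 14 tested of a list of 18 S100, annexin and cytoskeletal genes (0.519% of all genes were called higher by edgeR). With limma 9 of the 14 rose (2.98% of all genes), of which S100a6, Anxa2, Vim and Myo1f passed the filter through memory cells alone. Of the 10 that passed in both labels, edgeR called 1 and limma 5, all higher, and the median difference was 1.32 on the log2(CPM + 1) scale, beside 0.0046 over all such genes. Ahnak, a giant scaffold protein that binds S100a10, was at 207 to 1947 CPM in memory cells (median 626), against 1.49 to 203 CPM in naive cells (median 136), without overlap (adjusted p = 0.453 with edgeR, 0.00794 with limma). Tmsb4x, Tmsb10 and Actb had counts in every cell and passed neither test.

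**Figure D2:**
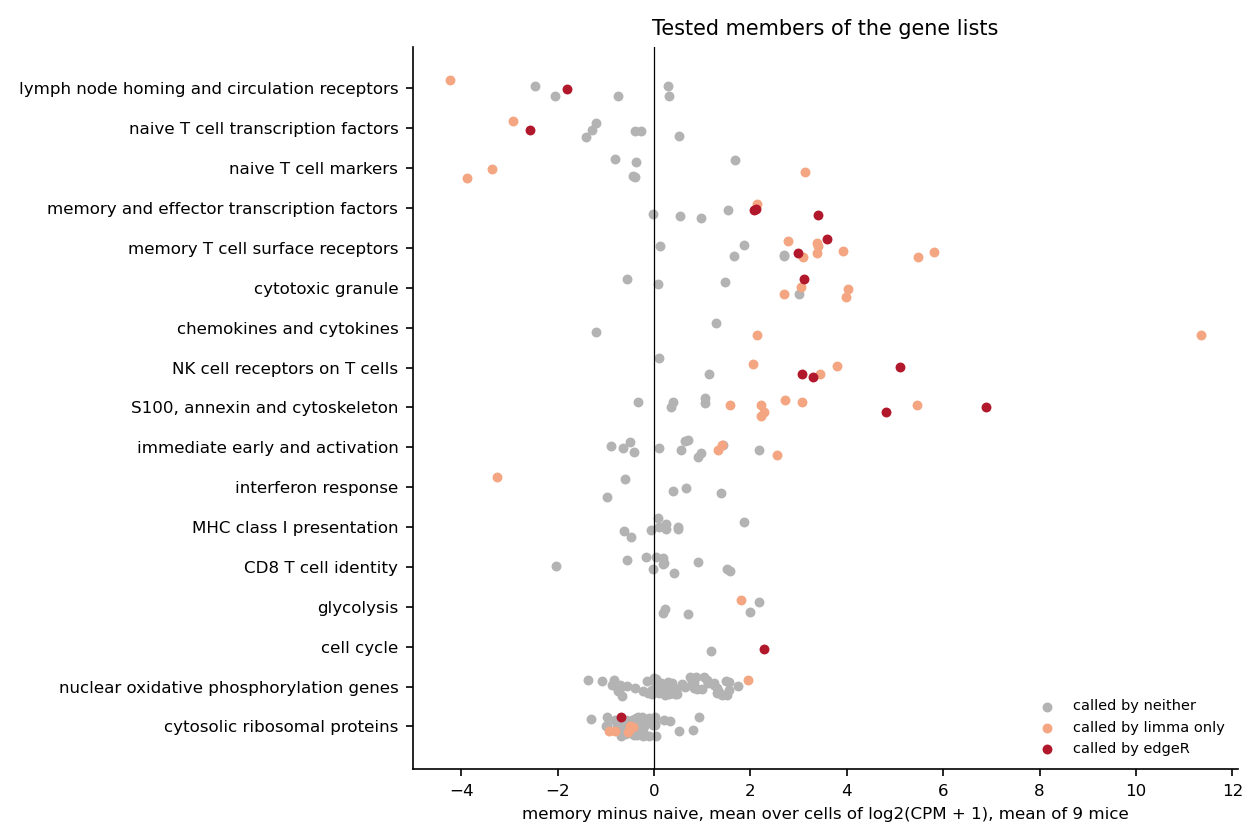
Difference of the mean log2(CPM + 1) between memory and naive CD8 T cells (memory minus naive, 9 mice) for each tested member of the gene lists. Points are genes, coloured by whether they passed edgeR, limma only or neither, and set apart vertically for legibility. Members of the NK receptor, memory receptor and S100 lists lie mostly to the right of 0, and those of the naive transcription factor and homing lists mostly to the left. Of the tested NK and memory receptors, 7 of 8 and 11 of 15 passed the detection filter through memory cells alone, so they could hardly lie to the left.

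The other genes that rose had varied roles. Samd3 (ENSMUSG00000051354, chr10:26229707-26272172, plus strand), a SAM domain protein of NK and memory T cells, was at 113 to 515 CPM in memory cells (median 250.3), against 0 to 39.5 CPM in naive cells (median 0), without overlap (adjusted p = 0.0158, edgeR). Gimap4 (ENSMUSG00000054435, chr6:48684549-48692060, plus strand), a GTPase of lymphocyte survival, was at 676 to 2961 CPM in memory cells (median 1456), against 449.6 to 1543 CPM in naive cells (median 799.7) (log2 difference 0.87 ± 0.14 SE, adjusted p = 0.0313, edgeR). Hmgb2 (ENSMUSG00000054717, chr8:57511907-57515999, plus strand), a chromatin protein that is abundant in dividing cells, was at 206 to 1438 CPM in memory cells (median 537), against 102 to 367 CPM in naive cells (median 232) (log2 difference 1.35 ± 0.24 SE, adjusted p = 0.0562, edgeR). Both were higher in 9 of 9 mice with overlapping ranges. Hmgb2 was 1 of 2 tested members of 15 cell cycle genes, and Mki67, the usual mark of division, had counts in 2.83% of memory cells and no naive cell at 150000 counts.

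Ctla2a, a cysteine protease inhibitor of activated T cells, was at 88 to 422 CPM in memory cells (median 247), against 0 to 66.1 CPM in naive cells (median 0), without overlap (adjusted p = 0.0884, edgeR). Acot7, an acyl-CoA thioesterase, Hmgn5, a nucleosome-binding protein, Fgl2, a fibrinogen-like protein that T cells secrete, and Itpr1 and Lpin1, a calcium channel of the endoplasmic reticulum and a phosphatidate phosphatase, were also called. Each was near 0 in the naive cells of most mice, and their highest naive values were 0.142, 6.82, 0.205, 12.9 and 156 CPM. The 3 remaining names, Gm11914, Gm13237 and Gm13160, are processed pseudogenes on chromosome 4, whose reads may come from near-identical copies, and they are reported as uncertain. Gm13237 was at 3.95 to 40.2 CPM in memory cells (median 11.3), against 1.36 to 9.95 CPM in naive cells (median 2.99) (log2 difference 1.69 ± 0.26 SE, adjusted p = 0.0309, edgeR).

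Among the genes that fell, Foxp1 (ENSMUSG00000030067, chr6:98925338-99522721, minus strand), a factor that keeps naive T cells quiescent, was separated in every mouse. It was at 110.1 to 521 CPM in memory cells (median 322), against 552 to 1261 CPM in naive cells (median 832) (means 334 ± 127 and 827 ± 228, SD, n = 9 mice, log2 difference -1.37 ± 0.25 SE, adjusted p = 0.0562, edgeR). All memory values lay below all naive values, with mouse 22 the closest. Klf2 (ENSMUSG00000055148, chr8:72319033-72321656, plus strand), the factor that drives expression of S1pr1, was at 112 to 737 CPM in memory cells (median 321), against 204 to 1421 CPM in naive cells (median 646) (log2 difference -1.07 ± 0.21 SE, adjusted p = 0.0884, edgeR). It was lower in 9 of 9 mice with overlapping ranges. With single mice left out, the adjusted p (edgeR) was 0.0569 to 0.185 for Foxp1 and 0.0946 to 0.28 for Klf2. Ccr9 (ENSMUSG00000029530, chr9:123678439-123784330, plus strand), the receptor for the gut and thymus chemokine CCL25, was at 0 in the memory cells of most mice and at 66.0 CPM in those of mouse 22, against 2.31 to 521 CPM in naive cells (median 169.6) (adjusted p = 0.0833, edgeR, and 0.0418 to 0.241 with single mice left out). It had counts in 1.89% of memory and 36.1% of naive cells at 150000 counts, so most naive cells had none either.

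Npc2 (ENSMUSG00000021242, chr12:84754562-84773152, minus strand), a lysosomal carrier of cholesterol, was at 269 to 769 CPM in memory cells (median 416), against 697 to 1724 CPM in naive cells (median 1149) (means 457 ± 169 and 1130 ± 305, SD, n = 9 mice, log2 difference -1.34 ± 0.22 SE, adjusted p = 0.0352, edgeR). The ranges met although the direction was the same in all mice. Rpl35 (ENSMUSG00000062997, chr2:39001580-39005624, minus strand), a protein of the large ribosomal subunit, had a small and even difference, with means of 2333 ± 486 and 2946 ± 586 CPM (SD, n = 9 mice, log2 difference -0.34 ± 0.06 SE, adjusted p = 0.0562, edgeR, and 0.069 to 0.268 with single mice left out). Rgcc, a regulator of the cell cycle that was chosen after its values were seen, was at 0 to 54.1 CPM in memory cells (median 0), against 301 to 919.6 CPM in naive cells (median 499.6). Its groups did not overlap, and it missed the threshold with edgeR (adjusted p = 0.139) and passed with limma (adjusted p = 0.00278).

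The receptors that lead lymphocytes into lymph nodes differed less evenly over mice. Of 8 listed, 7 were tested, and Klf2 alone was called by edgeR and Ccr7 alone by limma, Klf2 being listed with them as their regulator. Both were lower, as were 0.108% of all genes with edgeR and 0.606% with limma. Ccr7 (ENSMUSG00000037944, chr11:99144196-99155077, minus strand) was at 0 to 1234 CPM in memory cells (median 331), against 365 to 1726 CPM in naive cells (median 1155), and lower in 8 of 9 mice (adjusted p = 0.87 with edgeR, 0.0266 with limma). S1pr1, the receptor for exit from lymph nodes, was at 91 to 584 CPM in memory cells (median 294), against 18.9 to 564 CPM in naive cells (median 329), and went down in 5 mice and up in 4.

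Over the 7 the median difference was -1.82 on the log2(CPM + 1) scale, and over the 8 tested of 11 naive transcription factors it was -1.24. Of these factors edgeR called Foxp1 and limma Foxp1 and Lef1, all lower (0.108% and 0.606% of all genes). Lef1 (ENSMUSG00000027985, chr3:131110471-131224356, plus strand), a partner of TCF1 in naive cells, was at 89.9 to 373 CPM in memory cells (median 182), against 105 to 1209 CPM in naive cells (median 611) (log2 difference -1.74 ± 0.41 SE, adjusted p = 0.165, edgeR). It was lower in 8 of 9 mice, mouse 23 being the exception. Tcf7 (ENSMUSG00000000782, chr11:52252371-52283014, minus strand), which encodes TCF1 itself, was at 30 to 815 CPM in memory cells (median 296), against 127 to 1016 CPM in naive cells (median 519), and lower in 6 mice (log2 difference -0.76 ± 0.46 SE, adjusted p = 0.908, edgeR). Satb1, a chromatin organiser of T cells, had a log2 difference of -0.40 ± 0.21 SE (adjusted p = 0.855, edgeR).

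The remaining naive markers did not pass the edgeR test and differed in direction. Of 10 listed 8 were tested, and limma called Actn1 and Dapl1 lower and Cd28 higher, beside 0.606% and 2.98% of all genes. The summed level was 2411 ± 657 CPM in memory and 2571 ± 626 CPM in naive cells (SD, n = 9 mice), higher in memory in 4 of 9 mice. Actn1, a cytoskeletal crosslinker, was at 5.31 to 295 CPM in memory cells (median 47.5), against 95.8 to 422 CPM in naive cells (median 217) (log2 difference -2.22 ± 0.70 SE, adjusted p = 0.439 with edgeR, 0.0141 with limma). Dapl1, a death-associated protein of naive T cells, was at 0 to 362 CPM in memory cells (median 95.2), against 125 to 1182 CPM in naive cells (median 676) (adjusted p = 0.702 with edgeR, 0.0437 with limma). Both were lower in 8 of 9 mice. Cd28, the co-stimulatory receptor, was at 112 to 839 CPM in memory cells (median 456), against 0 to 477 CPM in naive cells (median 101.1), and higher in 7 of 9 mice (adjusted p = 0.849 with edgeR, 0.0888 with limma). Cd27, a co-stimulatory receptor of the TNF receptor family, had means of 279.9 and 130.0 CPM and was higher in 6 mice, without passing either test (adjusted p = 0.988 with edgeR, 0.438 with limma). Igfbp4 was below the filter, with counts in 2.83% of memory and 15.3% of naive cells (0.943% and 12.5% at 150000 counts). Il7r, the interleukin-7 receptor that both kinds of cell use to survive, was at 724 to 2552 CPM in memory cells (median 1086), against 423 to 1567 CPM in naive cells (median 967), with higher memory values in 5 mice and lower in 4.

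Several groups had no member called by edgeR. None of the 12 CD8 T cell identity genes passed either test, and their summed level was 9926 ± 1695 CPM in memory and 10840 ± 1257 CPM in naive cells (SD, n = 9 mice). The same held for 10 tested of 11 genes of MHC class I presentation. Of the inhibitory receptors 1 of 11 was tested, Cd5, which was not called, and Pdcd1, the PD-1 gene, had counts in 2.83% of memory cells and no naive cell. Of 15 tested immediate early genes none was called by edgeR and 3 by limma, all higher in memory cells (2.98% of all genes). These were Rgs1 (adjusted p = 0.00778, limma), Dusp5 (0.0416) and Dusp2 (0.0917). All passed the filter through memory cells alone, where limma called 7.52% of all such genes higher. None of the 9 that passed in both labels was called, and the other 12, among them Fos and Junb, passed neither. Of 6 tested interferon response genes limma called 1 and edgeR none. Of 6 tested glycolysis genes (14 of 15 are in the table) limma called 1 and edgeR none. Of 69 tested oxidative phosphorylation genes limma called 1 and edgeR none. The glycolysis and oxidative phosphorylation genes called were higher in memory cells and the interferon gene lower, beside 2.98% and 0.606% of all genes.

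The ribosomal protein genes differed by small amounts. Of 82 tested, edgeR called Rpl35 and limma 6, all lower (0.108% and 0.606% of all genes), and 7 of the 82 were lower in all mice (1.04% of all genes). The median difference of the 81 that passed in both labels was -0.38, beside 0.0046 over all such genes. As a percentage of the counts of a cell, ribosomal protein transcripts took 14.7 ± 3.13 in memory and 17.7 ± 1.91 in naive cells (SD, n = 9 mice) and were lower in 9 of 9 mice (exact sign-flip permutation test, two-sided, p = 0.00391, the smallest that 9 mice allow, adjusted p = 0.0195 over 5 measures per cell). The 3 memory cells of mouse 24 had the lowest value, 7.58%. In the TMM-scaled sums, the summed level was lower in 7 of 9 mice.

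Mice 1 and 15 gave memory cells that had no part in the paired test. Their levels, as CPM of library totals, were set beside the naive cells of the other mice, as a description, since their labels came from the same clustering. Of the 24 higher genes, 21 in mouse 1 and 20 in mouse 15 lay above the median naive value, and 18 and 15 above every naive value. Over all 4624 tested genes, 60.0% in mouse 1 and 46.3% in mouse 15 lay above the naive median, and 12.7% and 10.3% above every naive value. Since the naive median of many of the 24 genes is 0, any count puts them above it. Of the 5 lower genes, all lay below the naive median in both mice and 3 below every naive value, beside 39.8% and 53.3% of all tested genes below the median and 3.55% and 9.67% below every naive value.

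Memory cells had more RNA counts and more genes than naive cells of the same mouse. Total counts per cell were 565400 ± 98690 in memory and 464900 ± 101200 in naive cells (SD, n = 9 mice) and higher in 8 of 9 mice (exact sign-flip permutation test, two-sided, p = 0.0117, adjusted p = 0.0195). At 150000 counts drawn from every cell, 2649 ± 325 genes were detected in memory and 2420 ± 306 in naive cells (SD, n = 9 mice). The difference of 229 genes ranged from -28.2 in mouse 21 to 539 in mouse 2 (8 of 9 mice higher, exact permutation p = 0.00781, adjusted p = 0.0195). Without the 17 Trbv19 memory cells of mouse 2 that are described below, the difference in mouse 2 was -16.0 genes and the mean difference 167 genes, with 7 of 9 mice higher (exact permutation p = 0.0156). Total counts were then higher in 7 of 9 mice as well, and their difference no longer passed (exact permutation p = 0.0703). Without the draw the means were 3409 and 3037 genes. Within the mice wholly on lane 2 of the sequencer, as the read file names were understood, the difference was 285 genes (4 of 5 mice higher, exact permutation p = 0.125).

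The mitochondrial percentage of counts was 2.31 ± 0.517 in memory and 2.65 ± 0.451 in naive cells (SD, n = 9 mice, exact permutation p = 0.0703, adjusted p = 0.0879). Without the Trbv19 cells of mouse 2 the difference was -0.42 points, and memory was lower in 8 of 9 mice (exact permutation p = 0.0273). The red cell percentage was 2.65 ± 4.18 and 0.791 ± 1.72 (exact permutation p = 0.332) and was highest in the memory cells of mouse 24.

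**Figure D3:**
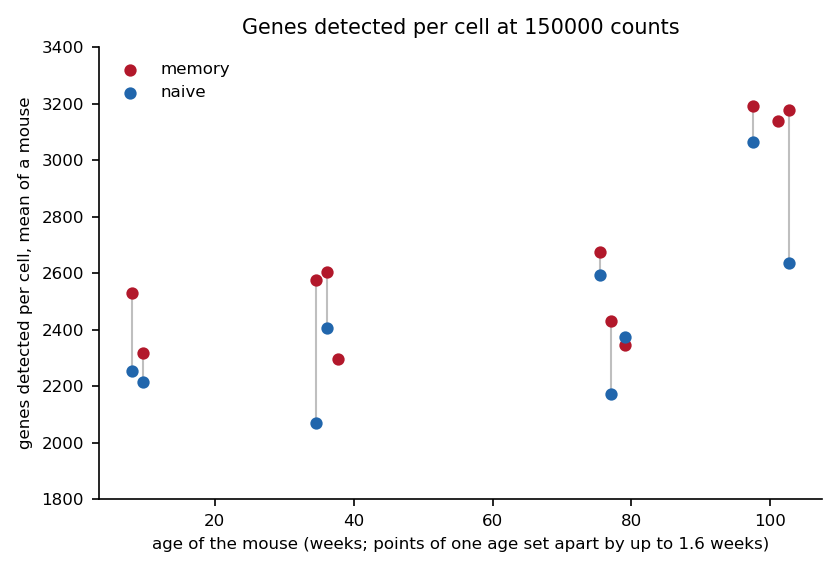
Genes detected per cell at 150000 counts, as the mean over the memory or naive CD8 T cells of each mouse, against the age of the mouse in weeks. Points are mice, lines join the labels of 1 mouse and points of equal age are set slightly apart; memory cells of the 3 oldest mice lie at 3139 genes or more, and those of all younger mice at 2674 or fewer.

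Both labels had more genes per cell in the oldest mice. In memory cells the mean was 3169 ± 27.0 genes in the oldest (SD, n = 3 mice) and 2471 ± 144 in the younger mice (n = 8), without overlap (p = 0.00606 by a two-sided exact permutation test, which cannot give less with 3 against 8). In naive cells it was 2850 ± 302 (n = 2) and 2297 ± 174 (n = 7, exact permutation p = 0.0278), also without overlap. The memory minus naive difference itself was 135 genes larger in the oldest mice, within its spread (exact permutation p = 0.444). Without the Trbv19 memory cells of mouse 2 described below, memory cells of the oldest mice had 2984 ± 316 genes (n = 3, exact permutation p = 0.0121), and the ranges overlapped, since mouse 2 then had 2621. Within the mice wholly on lane 2 the memory means were 3169 ± 27.0 (n = 3) and 2484 ± 122 (n = 3, exact permutation p = 0.1, the smallest possible). Red cell transcripts also differed with age. They made up 5.58e-05 to 0.00865% of counts in memory cells of the oldest mice and 0.00901 to 13.1% in those of younger mice. In naive cells they made up 0 and 0.075% against 0.00487 to 5.26%. The numbers of genes were not corrected for them, and their part was not tested.

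The share of cells under each label shifted with age. Whether RNA differences with age moved the line between the labels was not tested. Memory cells were 32.1% and 17.6% of the CD8 T cells in the mice of 9.6 and 9.7 weeks, 38.5%, 46.2% and 100% at 36.1 weeks, 60.9%, 75.0% and 69.2% at 77.0 or 77.4 weeks and 75.0%, 100% and 86.2% in the oldest mice. The numbers behind these shares are small, 7 to 29 cells, and the exact 95% binomial interval for mouse 24, with 3 of 17 cells, runs from 3.8 to 43.4%. Across the 11 mice the share rose with age (Pearson's r = 0.738, permutation p = 0.0122, Spearman's rho = 0.736, permutation p = 0.0121, adjusted p = 0.0122 for both). Mouse 15, of 36.1 weeks, stood apart with 7 of 7 memory cells, and without it r was 0.955 (permutation p = 2e-05).

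The relation rested in part on the youngest mice. Without mice 24 and 12, whose ages lie farthest from the median, r fell to 0.49 (exact permutation p = 0.185). Among the 6 mice wholly on lane 2, r was 0.95 (exact permutation p = 0.00278). This set leaves out mouse 15, whose 7 cells lay on lane 1, and r was 0.955 without that mouse alone. The share in the oldest mice was 87.1% ± 12.5 (SD, n = 3 mice) and in the younger mice 54.9% ± 26.5 (n = 8, exact permutation p = 0.0909).

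**Figure D4:**
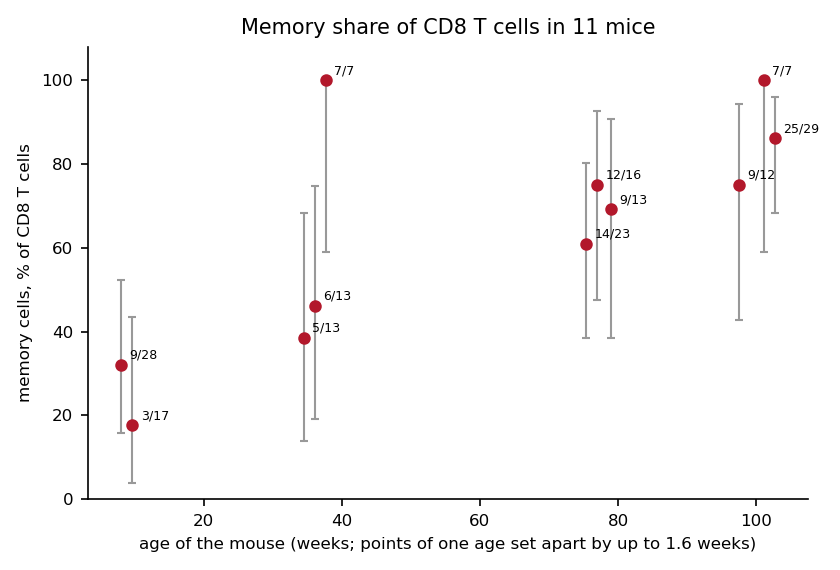
Memory cells as a percentage of memory and naive CD8 T cells in each mouse, against age in weeks. Points are mice with the number of cells beside them and bars are exact 95% binomial intervals, which cover counting error only; the youngest mice lie at 17.6 and 32.1% and the oldest at 75.0% or more.

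No gene was called for a change of the memory minus naive difference with age, of 4624 tested (0% called, edgeR), with 202 at an unadjusted p under 0.05. No gene was called for a slope on age in memory cells, of 4371 tested in 11 mice (0%, with 209 at an unadjusted p under 0.05), or in naive cells, of 3454 tested in 9 mice (0%, with 136). DESeq2 on the same sums called 464, 44 and 51 genes.

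Rgs1 (ENSMUSG00000026358, chr1:144242296-144249242, minus strand), a regulator of G protein signals from chemokine receptors, was chosen with earlier results of these data known and looked at within the labels. In memory cells its slope was 0.23 ± 0.07 (SE) on the log2 scale per 10 weeks (adjusted p = 0.847, edgeR, 11 mice). The memory cells of the oldest mice held 570.8, 341.3 and 968.3 CPM, and those of younger mice 46.5 to 420 CPM, so the ranges overlapped. These levels are scaled over the memory sums of the 11 mice, and those between the labels below over the sums of the 9 paired mice. In naive cells Rgs1 had counts in 9.72% of cells at 150000 counts and was not tested. Between the labels it was at 46.1 to 979.9 CPM in memory cells (median 253), against 0 to 361 CPM in naive cells (median 56), and higher in memory in 8 of 9 mice (adjusted p = 0.904 with edgeR, 0.00778 with limma).

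The T cell receptor gives a reading that no gene list holds. Each T cell joins 1 variable (Trbv), 1 diversity and 1 joining (Trbj) segment of the beta chain, and the daughters of a cell inherit the join. A cell was given the Trbv gene with most counts, with at least 10 counts, which 168 of the 178 cells reached. The chance that 2 cells of a mouse share a Trbv gene was 15.7% ± 15.0 in memory and 7.03% ± 10.8 in naive cells (SD, n = 9 mice). It was higher in memory cells in 7 of 9 mice (exact sign-flip permutation test, two-sided, p = 0.0352). The values rest on 3 to 25 memory and 3 to 17 naive cells of a mouse. With 3 cells, as in the memory cells of mouse 24, 1 shared pair gives 33.3%. The result rested on few mice, and with mice 2, 3, 11, 21, 23 or 24 left out, p was 0.0547 to 0.0703. With at least 1 count in place of 10 it was 0.0938.

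**Figure D5:**
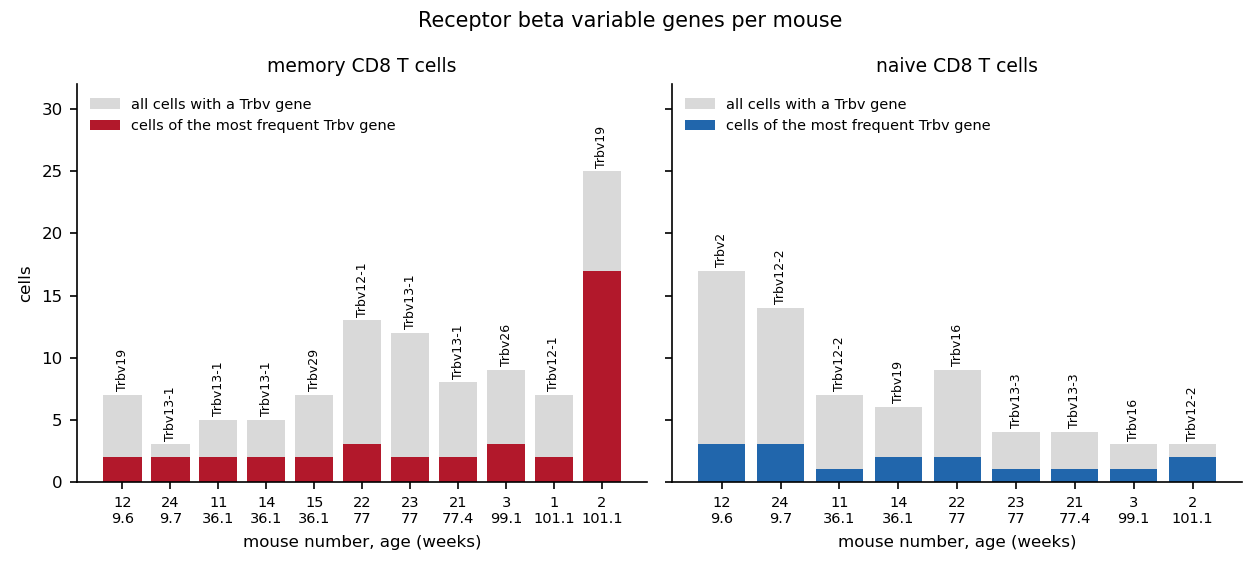
Number of cells with a Trbv gene in each mouse (grey bars) and of those with the most frequent Trbv gene of that mouse (coloured, named above the bar), for memory (left) and naive CD8 T cells (right), ordered by age in weeks. The 17 Trbv19 cells among 25 memory cells of mouse 2 stand out, and the most frequent gene of every other bar has 1 to 3 cells.

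The largest shared set was in mouse 2, one of the oldest, where 17 of 25 memory cells had Trbv19, against 11 of 81 memory cells of the other mice with any Trbv19 count (13.6%). The chance of sharing was 46.7% in the memory cells of this mouse. All 17 cells also had counts of Trbj2-1, with 3 to 34 counts each, against 1 of the 8 other memory cells of the mouse and 33 of 81 (40.7%) memory cells of the other mice. Trbj2-7 had counts in 12 of the 17, 5 of the 8 and 33 of the 81. Counts of a joining segment can come from unjoined transcripts as well as from the join.

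The end of Trbv19 and the start of both joining segments, where the join is made, are shown for the segments counted in these cells and are printed from the GENCODE vM21 transcripts (GRCm38, plus strand). The capitals mark the codon of the conserved cysteine at the end of Trbv19 (chr6:41179019-41179048) and the phenylalanine-glycine motif of Trbj2-1 (chr6:41542755-41542784) and Trbj2-7 (chr6:41543810-41543837), between which the variable loop lies. All 3 are coding sequence of their segments.
Trbv19: tggccgtttttctcTGTgccagcagtatag
Trbj2-1: aactatgctgagcagttcTTCGGACCAGGG
Trbj2-7: ctcctatgaacagtacTTCGGTCCCGGC
The deposited counts per gene do not hold the sequence of the join, so a shared segment pair does not show a shared receptor.

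Other segments were also frequent in the 17 cells. Trbv5 had counts in 12 of them (9 to 41 counts), in none of the 8 other memory cells of mouse 2 and in 4 of the 81 in other mice. On the alpha chain, Trav12n-3 had counts in 12 of the 17 (26 to 379 counts), 0 of 8 and 11 of 81, and counts of Trav12n-3, Trav12n-2 or Trav12d-2 were found in 13 of 17, 1 of 8 and 14 of 81. Traj7 had counts in 8 of the 17, 1 of 8 and 1 of 81. The Trav12 segments cannot be told apart with certainty, because Trav12n-3 and Trav12d-3 are identical over all 347 coding bases and Trav12n-2 and Trav12d-2 over all 341. Trbv12-1 and Trbv12-2 are 88.2% identical over 372 bases, and Trbv13-2 and Trbv13-3 90.6% over 340.

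The comparisons were repeated without these 17 cells. Then edgeR called 24 genes higher and 6 lower in memory cells, and the share of memory cells still rose with age (r = 0.679, permutation p = 0.0236).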

How the data were processed

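RNA counts of single cells were taken as deposited by the authors, who, per the methods, trimmed the reads (Trim Galore 0.6.7 per the labels), mapped them with STAR to GRCm38, counted them per Ensembl gene with featureCounts and deposited whole-number counts without normalization. Reads carry no molecular identifiers, so intervals cover counting error only. The table holds 38788 genes and 1055 cells. Mouse, age and cell label came from the annotation the authors published with the study. Lists of the authors' own comparisons were not used, nor were the methylation data. The number read as the lane stands in the names of the read files, and this reading is uncertain.

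Counts were summed per mouse and label over mice with at least 3 cells of each. Genes detected in at least 25% of the summed cells of either label were tested with edgeR 4.0.16 (TMM, robust quasi-likelihood fit, mouse as a block, R 4.3.3), with a Benjamini-Hochberg adjusted p under 0.1, the level of the study. CPM are TMM-scaled within the sums of each fit, except where mice 1 and 15 are set beside the naive cells. Same-numbered samples are from 1 animal and plate, which is where the pairing comes from. Age was tested as a slope per 10 weeks within each label and as a label by age term. A fold change is printed only for genes with counts of both labels in all mice. Where no naive cell had a count, the limit on the share of cells rests on 3 cells. For cells, 150000 counts were drawn per cell and means per mouse were compared by exact sign-flip or permutation tests, two-sided, in Python 3.11.15 with numpy 2.4.6, pandas 2.3.3, scipy 1.17.1 and matplotlib 3.10.9, and correlations with 100000 resamples.

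Alternatives were DESeq2 1.42.0, limma 3.58.1 on log2(CPM + 1), other normalizations and filters, subsets of cells and mice, and each mouse left out in turn. Those on lane 1, on mice wholly on lane 2, on the mice farthest in age, on the Trbv19 cells in genes per cell and in the memory share, and on genes per cell by age within labels were chosen after seeing the data. On simulated data with 200 of 4624 genes changed between labels, the edgeR test recovered 23% of genes changed by 2 on the log2 scale, with 2.13% false among those called, and 0% of those changed by 1. With 200 genes changed by 2 over the range of ages, it recovered 0.5% for the label by age term, 4% for the slope in memory and 0% in naive cells, so few changes of this size would be called with these mice.

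Named genes are the first 10 genes by p in either direction among those called and of 1 sign in all mice, up to 4 called members of each gene list, the markers of both labels, up to 5 called genes per age test, the most frequent Trbv genes and Rgs1. Others are said to have been chosen later or stand for their list. The members and lists were chosen with earlier results of these data known. Some members of the lists are not reported here by name.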

Additional observations from a re-analysis of the deposited data

Results flagged for a closer look

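Of 39 sets of memory minus naive values over 9 mice that were tested for a single far value, 7 had a gap above Dixon's limit of 0.493 of the whole range, where chance gives about 1 in 20. On the scale of log2(CPM + 1), the difference of Samd3 was 2.79 in mouse 21, with the nearest other mouse at 6.64. That of Klrk1 was 1.69 in mouse 24, with the nearest at 7.08, and that of Il18rap was 0.363 in mouse 23, with the nearest at 5.76. For Cxcr3 it was 1.35 in mouse 12, with the nearest at 6.49. In each of these genes the direction in the far mouse was that of the others. Lef1 was higher in memory cells in mouse 23 alone, by 1.35, with the nearest mouse at -1.1. Tcf7 had a difference of -4.25 in mouse 11, with the nearest at -1.72. The red cell percentage of counts was 13 points higher in the memory cells of mouse 24, with the nearest mouse at 4.06.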

How the results depend on the processing

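The 29 genes kept their direction in every alternative that tested them. The other normalizations called 29 or 30 genes, with 28 or 29 of the 29 among them, a filter at 10% called 27 (18 of the 29), a draw of 150000 counts per cell 29 (22 of the 29) and the removal of the Trbv19 cells of mouse 2 30 (26 of the 29). Without the replicate block for the mouse, 41 genes were called, 36 higher and 5 lower, with 16 of the 29 among them. The count moved to 502 with DESeq2, 166 with limma, 7 with the filter in both labels, 14 with no filter, 16 at an adjusted p of 0.05, 11 with equal cell numbers, 11 without cells with other markers and 10 within lane 2. It was 0 with mice of at least 5 cells of each label (4 mice, 210 genes at an unadjusted p under 0.05), in red cell class 0 (4 mice, 148 genes) and within lane 1 (3 mice, 142 genes). With single mice left out it was 15 to 20, and below 20 without mouse 22 (15), 2 or 14 (16), 12 (18), 3, 11 or 23 (19). Leaving out mice or cells uses fewer samples, and the cause of the other shifts was not tested. DESeq2 called 464 genes for the label by age term, 44 for the slope in memory and 51 in naive cells, and leaving out single mice gave 0 to 1 in memory cells, the 1 being Iqsec1 without mouse 24. Of 849 values of the named genes under alternatives, 608 kept their direction and their side of the threshold, 215 lost the call, 25 gained it and 1 turned, Satb1 with equal cell numbers, at 0.15 on the log2 scale. The difference in genes per cell was 190 to 261 with single mice left out, 285 within lane 2 mice (exact permutation p = 0.125) and 167 without the Trbv19 cells of mouse 2 (exact permutation p = 0.0156). The correlation of the memory share with age was 0.649 to 0.955 with single mice left out and 0.49 without the mice farthest in age (exact permutation p = 0.185). The difference in the chance of a shared Trbv gene was 6.97 points at a minimum of 1 count (exact permutation p = 0.0938) and 6.43 to 10.2 with single mice left out.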
